A study of Mus musculus with 8 samples.

Results

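The calcitonin receptor family was described here across RNA bound to tagged ribosomes of the mouse hippocampus. The family was taken as 8 genes: the receptors Calcr and Calcrl, the accessory proteins Ramp1, Ramp2 and Ramp3, and the peptide genes Calca, Calcb and Adm. Every array probe that carries one of these names was used, whether bright or dim, which gave 12 of the 55663 probes measured, or 8 of 35701 gene names. The members were chosen by their relation to Calcr, and Calcr was itself selected on the difference between the genotypes in these same arrays, so that difference is given below as a description and without a p-value.

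The study compared mice with a conditional deletion of Ctcf, which encodes a DNA-binding factor with zinc fingers that organises chromosome loops, with mice that kept it, and its title concerns microglia and inflammation-related transcription. The 4 conditional knockout (CKO) mice were Ctcf loxP/loxP, Camk2a-Cre positive and Ribotag positive. The 4 WT mice were Ctcf wild type and carried the same Camk2a-Cre and Ribotag alleles, so Cre and the tagged ribosomal protein Rpl22 were present in both groups. All were untreated adult C57BL/6 mice at least 3 months old, and each group held 3 males and 1 female. The design text of the series describes the controls as loxP homozygotes instead, and the sample labels were followed. In the RiboTag method Cre switches on a haemagglutinin-tagged Rpl22, and an antibody to the tag pulls down ribosomes with the RNA on them. Camk2a drives Cre in forebrain excitatory neurons, so the pulled-down RNA is meant to come from those cells. Markers of other cell types were measured in it and are given below.

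Receptors of this family sit in the plasma membrane and raise cyclic AMP inside the cell through the stimulatory G protein. Calcr alone binds calcitonin, and with a receptor activity modifying protein (RAMP) it becomes an amylin receptor. Calcrl reaches the membrane as a working receptor only with a RAMP: with Ramp1 it binds calcitonin gene-related peptide (CGRP), and with Ramp2 or Ramp3 it binds adrenomedullin. In the brain Calcr is best known from the hypothalamus and hindbrain, while Calcrl with Ramp2 is known from blood vessel endothelium.

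Values are the log2 processed spot signal minus the 75th percentile of its array, called the normalized signal here. A value of 0 therefore lies at that percentile and a negative value below it. Levels of different probes are not comparable on arrays, since probes differ in how strongly they hybridise. A spot was counted as well above background where Agilent's software marked it so. Of the 12 probes 7 were well above background on all 8 arrays, 8 on at least 4 arrays, and 3 on none, namely those of Calcrl, Calcb and Adm.

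The arrays lay on 3 slides. Slide 1 held WT 1, slide 2 held CKO 1, CKO 2, WT 2 and WT 3, and slide 3 held CKO 3, CKO 4 and WT 4. Between 72.3% and 81.6% of the probes were well above background on each array, lowest in CKO 3 and highest in WT 1, and correlations between arrays ranged from 0.941 to 0.985. The targeted gene was checked first. Ctcf had normalized signals of -2.55, -2.40, -1.96 and -2.01 in CKO 1 to 4, against -1.08, -1.72, -1.45 and -1.14 in WT 1 to 4. Every CKO array lay below every WT array, and the mean signal in CKO was 54.4% of that in WT. The log2 difference was -0.88 ± 0.21 (SE, n = 4 each), with a two-sided exact permutation p of 0.0286, the smallest that 4 against 4 allows, and a limma adjusted p of 0.797 over all probes. Whether the Ctcf probe lies within the deleted part was not analysed here.

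Calcr was the member with separate groups. Its signal was not well above background on any CKO array, and on the WT arrays it was dim but well above background. The array carries a single probe for it, at chr6:3635940-3635999 of mm9 on the minus strand, the build given in the files. Which exon or untranslated region a probe lies in was not analysed here for any member. The first 30 of the 60 probe bases are shown because the whole result on this gene rests on that sequence.
Calcr probe A_52_P469789: ggacggattgaaggaaggatgttttttcaa

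The Calcr probe had normalized signals of -7.38, -7.50, -6.07 and -6.22 in CKO 1 to 4, against -4.61, -5.05, -4.67 and -4.99 in WT 1 to 4. The groups did not overlap, and the highest CKO array lay 1.02 below the lowest WT array. The CKO arrays fell into a lower pair on slide 2 and a higher pair on slide 3, while the WT arrays lay close together. The means were -6.79 ± 0.75 in CKO and -4.83 ± 0.22 in WT (SD, n = 4 each), a log2 difference of -1.96 ± 0.35 (SE). The mean difference as measured put CKO at 25.7% of WT. Within slide 2 the difference was -2.58, with a surrogate value in place of the signal on both CKO arrays. Within slide 3 it was -1.15, with WT 4 as the only WT array. The groups did not overlap, so the sign within a slide was fixed in advance.

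The probe was well above background on 0 of 4 CKO arrays and on 4 of 4 WT arrays, so the CKO level is not known exactly. As a floor, each CKO array was given the higher of its own value and its lowest probe well above background. The WT mean was then set against the mean of these. With this floor Calcr was 3.81-fold lower in CKO, close to the measured 3.90-fold. On CKO 1, CKO 3 and CKO 4 the Calcr value was the higher of the pair. Calcr lay above the floor there without being well above background, so the floor is no detection limit for this probe. The 3.81-fold is therefore not a lower limit of the difference. It was taken over all 8 arrays as scaled here. The log2 difference was smaller within slide 3, as given above, and was -1.73 without CKO 2. Fewer cells with Calcr and less Calcr RNA per cell cannot be told apart in bulk RNA of this kind, for Calcr or for any other member.

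On the linear scale the processed signal of the Calcr spot was 25.1, 22.2, 58.8 and 69.7 in CKO 1 to 4, against 205, 137, 162 and 160 in WT 1 to 4. After background subtraction the spot lay between -5.58 and 75.9 on the CKO arrays, and between 142 and 218 on the WT arrays. In units of the spread of the negative control spots of the same array, that was -0.14 to 2.0 standard deviations in CKO and 2.93 to 6.91 in WT. The software marked the spot as positive and significant on CKO 3, CKO 4 and all 4 WT arrays. On CKO 1 and CKO 2 it replaced the signal with a small surrogate value, so the exact values there carry no order. The mean spot signals before subtraction were 1051 to 1339 in CKO and 1248 to 1530 in WT, so they overlapped, and the background taken off was 1056 to 1276 in CKO and 1106 to 1312 in WT. The separation of the groups therefore appeared after the background was subtracted.

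The choice of background correction moved this value more than any other setting. The difference was -1.31 after quantile normalization of the processed signals, which is 2.48-fold and less than the 3.81-fold given above. It was -0.23 with the normexp background correction, an offset of 50 and quantile normalization, and -0.25 with an offset of 1, a setting added after the data were seen. That correction starts from the local background median, which was 96 to 110 in CKO and 97 to 115 in WT, where the software had subtracted at least 1056. The cause of the smaller difference was not tested. The direction was the same in all 21 settings in which Calcr could be measured, most of which reuse the values on which Calcr was chosen.

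Among the 12 probes Calcr was the 1 whose groups did not overlap, beside 3.03% of all probes in either direction, 1.53% lower in CKO and 1.49% higher in CKO. Over all probes limma called 3 at an adjusted p under 0.05, which is 0.00539%, and 0 of the 12 members were among them. At an unadjusted p under 0.05 the count was 1 of 12 members, beside 5.24% of all probes. These counts include the contrast by which Calcr was chosen and are given as a description. Of all probes 154 had a difference at least as large in size as that of Calcr, itself included. At an unadjusted limma p under 0.05, 1031 of all probes were higher in CKO and 1884 lower. Among the 38780 probes well above background on all arrays 931 were higher and 902 lower. The excess of lower probes therefore lay among those that, like Calcr, were not well above background on every array. Over the 12 members 6 differences were positive and the median was 0.026, beside a median of -0.07 over all probes.

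**Figure D1:**
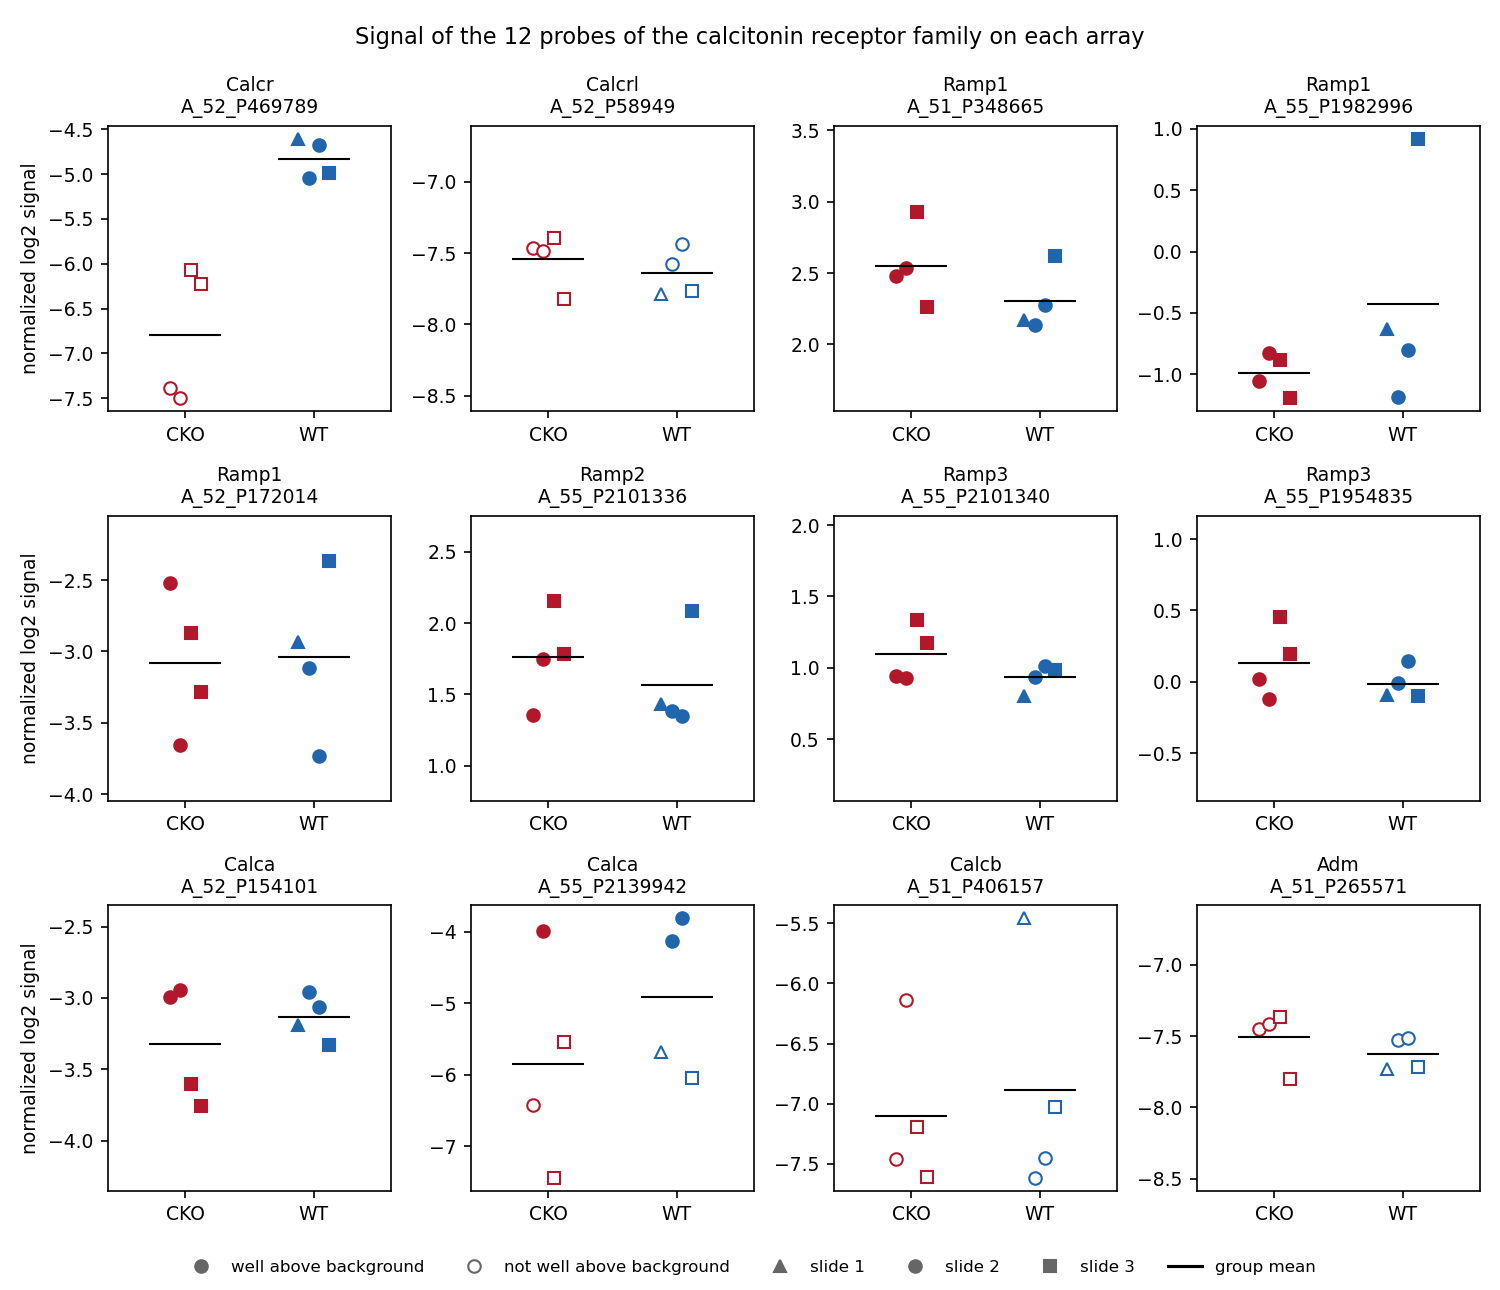
Normalized log2 signal (vertical axis, own range in each panel) of the 12 probes in CKO (red, left) and WT (blue, right), 1 point per array, with lines at group means. Filled points are well above background, open points are not, and the shape gives the slide. The Calcr panel alone shows groups that do not overlap, with all 4 CKO points open.

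Calcrl, the partner receptor, was at background throughout. Its probe at chr2:84173073-84173132 (mm9, minus strand) had normalized signals of -7.46, -7.48, -7.39 and -7.82 in CKO 1 to 4, against -7.78, -7.58, -7.43 and -7.76 in WT 1 to 4. The groups overlapped, the probe was well above background on no array, and the software used the surrogate value on all 8. No fold is given where both groups are at background.

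Ramp1, the partner that makes Calcrl a CGRP receptor, had 3 probes that did not move together. The start of each is shown because the files name a transcript for each: the same for the first and last probe, and another for the middle one.
Ramp1 probe A_51_P348665: agacgctatggtgtgactggggaaagacca
Ramp1 probe A_55_P1982996: cttcttaggtgttccccctctttctatact
Ramp1 probe A_52_P172014: tgggagtggatctccatccattcctcaaaa

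The probe A_51_P348665, for which the files give no mm9 position, had normalized signals of 2.48, 2.54, 2.93 and 2.26 in CKO 1 to 4, against 2.17, 2.14, 2.28 and 2.62 in WT 1 to 4. The groups overlapped through CKO 4 and WT 4, and the means were 2.55 ± 0.28 in CKO and 2.30 ± 0.22 in WT (SD, n = 4 each). The log2 difference of 0.25 ± 0.19 (SE) was near the spread between mice, and it was 0.30 within slide 2 and -0.026 within slide 3.

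The probe A_55_P1982996 (chr1:93103294-93103353, mm9) had -1.06, -0.83, -0.89 and -1.20 in CKO 1 to 4, against -0.63, -1.19, -0.80 and 0.92 in WT 1 to 4. WT 4 stood apart, with 2.93 to 4.33 times the normalized signal of each other array. The difference of -0.57 ± 0.42 (SE) rested on that mouse and was -0.12 without WT 4. In the other Ramp1 probes WT 4 lay within the range of the other arrays or just above it.

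The probe A_52_P172014 (chr1:93121428-93121487, mm9) had -2.52, -3.66, -2.87 and -3.29 in CKO 1 to 4, against -2.93, -3.12, -3.73 and -2.36 in WT 1 to 4. The 2 groups covered nearly the same range, and the difference was -0.048 ± 0.34 (SE). Its sign was the same in 12 of 21 settings only, and it turned positive with median scaling (0.099), quantile normalization (0.19) and the authors' deposited values (0.25). Over the 8 arrays the 3 Ramp1 probes had pairwise Pearson correlations of 0.32, 0.34 and 0.50.

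Ramp2, the partner for adrenomedullin in vessels, was measured well above background on all arrays by a probe at chr11:101109501-101109560 (mm9). Its normalized signals were 1.36, 1.75, 2.16 and 1.78 in CKO 1 to 4, against 1.43, 1.38, 1.35 and 2.08 in WT 1 to 4. The WT arrays were close together except WT 4, which reached into the upper part of the CKO range. The difference was 0.20 ± 0.23 (SE), within the spread between mice, and it was 0.37 without WT 4 and -0.11 within slide 3.

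Ramp3, the other adrenomedullin partner, had 2 overlapping probes at chr11:6577416-6577475 and chr11:6577424-6577483 (mm9), which largely read the same sequence. The probe A_55_P2101340 had normalized signals of 0.95, 0.93, 1.34 and 1.17 in CKO 1 to 4, against 0.80, 0.94, 1.01 and 0.99 in WT 1 to 4. CKO 3 and CKO 4 lay above every WT array, and CKO 1 and CKO 2 lay among them. The difference was 0.16 ± 0.15 (SE).

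The Ramp3 probe A_55_P1954835 had 0.016, -0.12, 0.45 and 0.19 in CKO 1 to 4, against -0.093, -0.0089, 0.15 and -0.097 in WT 1 to 4. It ordered the arrays much as its neighbour did, with a Pearson correlation of 0.92 over 8 arrays, and its difference was 0.15 ± 0.16 (SE). The higher Ramp3 values in CKO came from slide 3, where the differences were 0.27 and 0.42. Within slide 2 they were -0.037 and -0.12.

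Calca, which makes calcitonin or CGRP from alternative 3′ exons of the same gene, had 2 probes. Their first 30 bases are shown because the files name a different transcript for each.
Calca probe A_52_P154101: tattgtgcatcgtgttgtatgtgactctgt
Calca probe A_55_P2139942: aagaatggtatctgaaatccccagtgggtg

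The Calca probe A_52_P154101 (chr7:121775204-121775263, mm9, minus strand) was well above background on all arrays, with -3.0, -2.94, -3.61 and -3.76 in CKO 1 to 4, against -3.19, -2.96, -3.07 and -3.33 in WT 1 to 4. CKO 3 and CKO 4 were the lowest arrays, CKO 2 was the highest, and CKO 1 lay among the WT arrays. The difference was -0.19 ± 0.22 (SE). It was 0.044 within slide 2 and -0.35 within slide 3, and it was 0.048 after quantile normalization and 0.062 with the authors' deposited values.

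The Calca probe A_55_P2139942 (chr7:121776948-121777007, mm9, minus strand) had -6.42, -4.00, -7.44 and -5.54 in CKO 1 to 4, against -5.68, -4.14, -3.81 and -6.05 in WT 1 to 4. It was well above background in CKO 2, WT 2 and WT 3 and on no other array, and these 3 arrays share slide 2 with CKO 1, where it was dim. The groups overlapped widely, and the difference of -0.93 ± 0.79 (SE) was close in size to its error. The 2 Calca probes had a Pearson correlation of 0.59 over 8 arrays.

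Calcb, a second CGRP gene, and Adm, the adrenomedullin gene, were not well above background on any array. Calcb (chr7:121866534-121866593, mm9) had -7.46, -6.14, -7.19 and -7.61 in CKO 1 to 4, against -5.46, -7.62, -7.46 and -7.03 in WT 1 to 4, with the surrogate value on 3 CKO and 2 WT arrays. Adm (chr7:117773088-117773147, mm9) had -7.45, -7.41, -7.37 and -7.80 in CKO 1 to 4, against -7.73, -7.53, -7.51 and -7.72 in WT 1 to 4, with the surrogate value on all 8 arrays. The groups overlapped for both genes, and with both groups at background no fold is given.

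**Figure D2:**
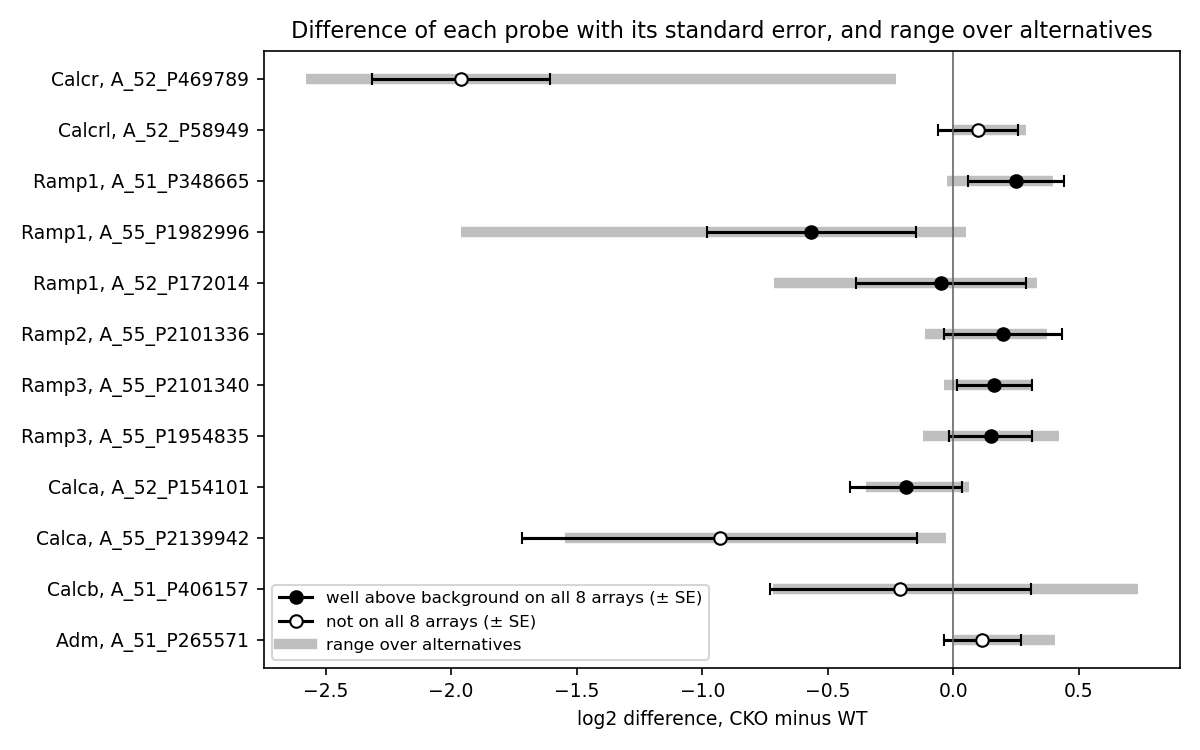
Log2 difference, CKO minus WT (horizontal axis), of each of the 12 probes, with bars of 1 SE (4 mice per group) and grey bands from the lowest to the highest value over the alternative settings. Calcr lies at -1.96 with a band that stays below 0 but reaches -0.23, and the other probes lie between -0.93 and 0.25.

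Sex was a contrast that the choice of genes did not use. Female mice were compared with male mice, 2 against 6, in a limma fit over all probes with genotype as a second term, a comparison added after the data were seen. At an adjusted p under 0.05, 0 of 12 member probes passed, beside 0.0826% of all probes, and 2 members had an unadjusted p under 0.05, beside 7.97% of all probes. Calca A_55_P2139942 averaged -3.91 in females and -5.88 in males, a difference of 1.97 ± 0.64 (SE, limma adjusted p = 0.590), although the male WT 2, at -4.14, lay close to the females. Ramp1 A_52_P172014 averaged -3.69 in females and -2.85 in males, a difference of -0.84 ± 0.27 (SE, limma adjusted p = 0.590). With 1 female per group these values rest on 2 animals, and both females lay on slide 2, so sex is not free of the slide.

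Calcr was compared with every other gene for likeness of pattern. Among 18568 genes with a symbol and signal well above background on at least 4 arrays, the highest Pearson correlations with Calcr over the 8 arrays belonged to Olfr59 (0.948), Mcm9 (0.944), 4632415L05Rik (0.942), 1700109G14Rik (0.940) and Ctcf (0.940). Olfr59 is an olfactory receptor gene and Mcm9 codes for a helicase of DNA repair. These are descriptions over 8 arrays that share 2 genotypes, 3 slides and the background correction, with surrogate values of Calcr on 2 of them, and a gene that differs between genotypes as Calcr does will rank high.

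Among the CKO arrays CKO 3 and CKO 4 had the higher signal of both genes, and CKO 1 and CKO 2 the lower. Calcr was not well above background on any of these 4 arrays and was a surrogate value on the lower pair, so no relation with Ctcf within the knockouts can be read from them. The pairs are also the slides, so mouse and slide cannot be told apart here. The other 11 member probes had Pearson correlations with Calcr between -0.47 and 0.35, and 7 of those 11 were negative.

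**Figure D3:**
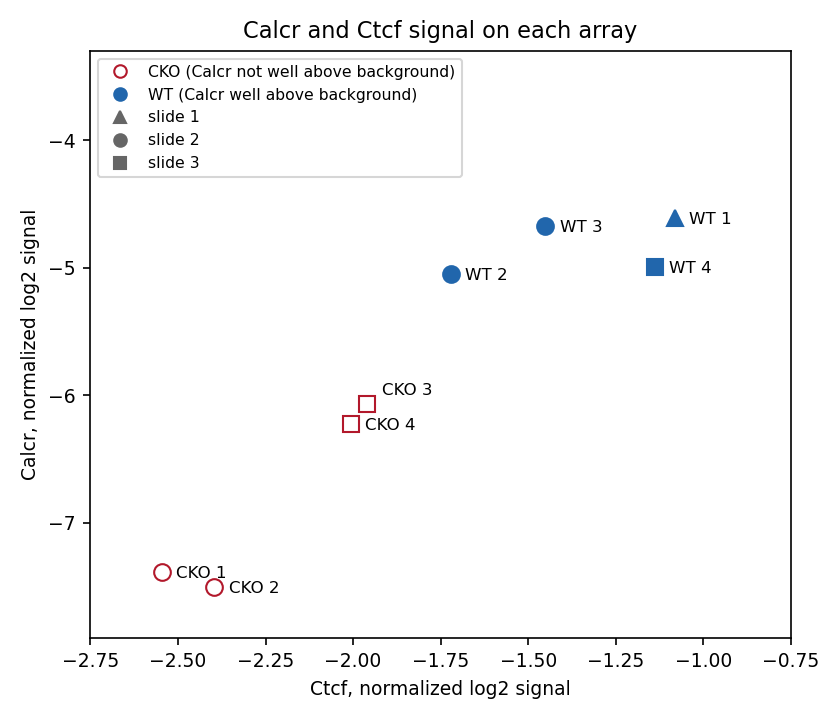
Normalized log2 signal of Calcr (vertical axis) against that of Ctcf (horizontal axis) on each of the 8 arrays, CKO in red and WT in blue, with shapes for the slides and open points where Calcr was not well above background. The 4 CKO arrays lie lower on both axes than the 4 WT arrays, and CKO 1 and CKO 2 of slide 2 lie lowest.

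The start of Calcr was examined for the letters that CTCF is known to favour, since the factor binds DNA directly. RefSeq gives a pair of start regions for Calcr on GRCm38.p6, each from 250 bases before to 50 bases after a start and read along the minus strand of the gene. These coordinates are of another build than those of the probes. Both regions are shown because they differ in base composition, with CCCTC and its reverse complement GAGGG in capitals.
Calcr chr6:3763574-3763873: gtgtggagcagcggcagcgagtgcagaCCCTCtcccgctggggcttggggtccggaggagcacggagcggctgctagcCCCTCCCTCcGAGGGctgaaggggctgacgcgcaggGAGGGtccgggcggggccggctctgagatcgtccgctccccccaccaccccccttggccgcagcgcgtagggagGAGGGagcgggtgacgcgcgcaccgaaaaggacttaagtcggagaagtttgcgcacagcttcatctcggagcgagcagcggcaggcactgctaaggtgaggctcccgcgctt
Calcr chr6:3764664-3764963: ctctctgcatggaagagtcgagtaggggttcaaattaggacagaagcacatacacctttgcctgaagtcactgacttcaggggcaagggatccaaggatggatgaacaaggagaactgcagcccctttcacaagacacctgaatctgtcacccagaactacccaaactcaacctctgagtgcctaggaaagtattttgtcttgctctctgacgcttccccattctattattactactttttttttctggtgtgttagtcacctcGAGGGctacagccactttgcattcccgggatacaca

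The first Calcr region was 70.0% G or C with 29 CG pairs, and the second was 47.3% G or C with 4, beside medians of 52.7% and 7 over the 32851 regions of the table. CCCTC was searched on both strands, and neighbouring matches may share letters. The first region held 6 matches, of which 2 share a letter, and the second held 1. Over all regions 66.0% held at least 1 match, the median was 1, and 3.78% held 5 or more. For the other members with a region in the table the counts were 1 for Calcrl, Ramp1 and Adm and 2 for Calca and Ramp3. The letters TGACGTCA, which read the same on both strands and to which factors of the cyclic AMP response bind, were in 1.79% of all regions and in none of the members'. That says only that these letters are not in these windows. A match is a run of letters and not a binding site, and no binding was measured here.

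Calcr lies on mouse chromosome 6 near a group of imprinted genes, and in mouse brain it is known to be expressed mainly from the maternal copy. The genes within 1000000 bases of the Calcr probe were therefore listed by position, and which of them are imprinted was not analysed here. There were 17, of which 8 were well above background on all arrays, 10 on at least 4, and 7 on none. At a limma adjusted p under 0.05 over all probes 0 of 17 passed, 0 had an unadjusted p under 0.05 beside 5.24% of all probes, and 0 had groups that did not overlap. Of the 17 differences 9 were positive, and their median was 0.029.

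The nearest of the measured neighbours was Vps50, a vesicle trafficking gene, with a difference of -0.12 ± 0.26 (SE). Casd1, which adds acetyl groups to sialic acids, had 0.11 ± 0.20 (SE), and Bet1, a vesicle fusion gene of the Golgi, had -0.0037 ± 0.16 (SE). The G protein gamma genes Gng11 and Gngt1 had differences of 0.29 and -0.048, and the collagen gene Col1a2 had 0.18. Samd9l, an interferon-induced gene, had -0.13, and 4930528H21Rik had -0.20. A probe for an intergenic region that gave signal on 3 CKO and 3 WT arrays had -0.41. Over the 17 neighbours the largest difference was 1.10 times its standard error in size.

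Hepacam2, a cell adhesion gene of the same neighbourhood, varied by slide and not by genotype. Its normalized signals were -2.78 and -3.91 in CKO 1 and CKO 2 and -3.04 and -2.86 in WT 2 and WT 3, all of slide 2. Off slide 2 they were -7.42 and -6.06 in CKO 3 and CKO 4, and -6.25 and -6.89 in WT 1 and WT 4. Its difference between genotypes was -0.28 ± 1.27 (SE).

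**Figure D4:**
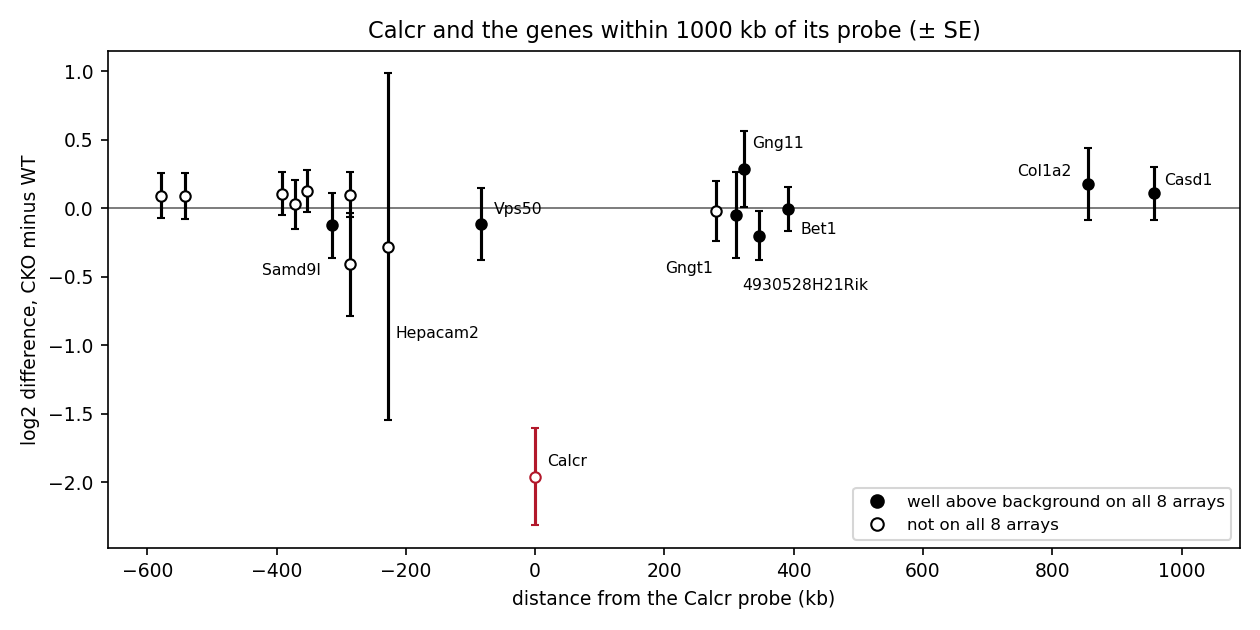
Log2 difference, CKO minus WT (vertical axis), of Calcr (red) and of the 17 genes within 1000000 bases of its probe, against distance along the chromosome in kb (horizontal axis), with bars of 1 SE. The neighbours lie between -0.41 and 0.29, and Calcr lies at -1.96.

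The wider pathway was taken from 5 lists of 54 measured genes, from the other peptides of the family to the enzymes of cyclic AMP signalling. At a limma adjusted p under 0.05 over all probes 0 of 54 genes passed in either direction, and the smallest adjusted p was 0.797. At an unadjusted p under 0.05 there were 5 higher and 2 lower in CKO. Over all 55663 probes 1031 were higher and 1884 lower, together the 5.24% given above. Of the 54 differences 39, or 72.2%, were positive with a median of 0.11, beside 43.4% positive and a median of -0.07 over all probes. Among the 38780 probes well above background on all arrays 41.9% were positive and the median was -0.068. Of these, 931 were higher and 902 lower at an unadjusted p under 0.05. The groups did not overlap for 5 of the 54 genes, beside the 3.03% of all probes. Shares of positive differences depend on the scaling. The median of all probes was 0.0028 after quantile normalization and 0.077 with median scaling.

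The other peptides of the family did not stand out. Iapp, which encodes amylin, was well above background on no array, and Adm2, which encodes intermedin, had a difference of -0.052 ± 0.33 (SE). Among 7 genes of peptide maturation and breakdown 5 differences were positive and the median was 0.045. Across the 22 settings that median lay between -0.034 and 0.19. Pcsk2, a convertase that cuts prohormones, had normalized signals of 4.22, 4.07, 4.08 and 4.02 in CKO 1 to 4, against 3.67, 3.89, 3.70 and 3.86 in WT 1 to 4. Its difference was 0.32 ± 0.13 (SE, limma unadjusted p = 0.0397).

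Mme, the neutral endopeptidase that breaks down several peptides, had -4.38, -6.03, -7.08 and -7.61 in CKO 1 to 4, against -5.79, -3.62, -4.27 and -4.68 in WT 1 to 4. It was well above background in CKO 1 only among the knockouts and in 3 WT mice. The groups overlapped, and the difference was -1.68 ± 0.73 (SE, limma unadjusted p = 0.0483).

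Of 11 genes of receptor coupling and G proteins 8 differences were positive and the median was 0.11. Across the 22 settings 5 to 9 were positive. The median lay between -0.043, with the authors' deposited values, and 0.26, with median scaling. Gnb1, a G protein beta subunit, had 5.45, 5.69, 5.78 and 5.50 in CKO 1 to 4, against 4.99, 5.24, 5.26 and 5.19 in WT 1 to 4. Every CKO array lay above every WT array, by a difference of 0.43 ± 0.15 (SE, limma unadjusted p = 0.0169). Arrb1, an arrestin that uncouples receptors, had a difference of 0.28 ± 0.15 (SE). Gnas, the stimulatory G protein that these receptors use, had -0.021 ± 0.15 (SE), and Crcp, the receptor component protein of CGRP receptors, had 0.060 ± 0.18 (SE).

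Of 21 cyclic AMP genes 20 differences were positive and the median was 0.16. Adcy2, an adenylyl cyclase, had 0.94, 0.80, 1.31 and 0.83 in CKO 1 to 4, against 0.41, 0.46, 0.49 and 0.07 in WT 1 to 4. Adcy5, a second cyclase, had 2.84, 2.56, 2.93 and 2.53 in CKO 1 to 4, against 2.19, 2.27, 2.21 and 2.33 in WT 1 to 4. The groups did not overlap for either, with differences of 0.62 ± 0.17 and 0.46 ± 0.15 (SE) and limma unadjusted p-values of 0.00735 and 0.0140, and neither passed the adjusted threshold.

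The mean normalized signal of the 21 cyclic AMP genes was 1.41 to 1.80 on the CKO arrays and 1.20 to 1.47 on the WT arrays, so the ranges overlapped. Across the 22 settings the list's median lay between 0.11 and 0.31, and the number of positive differences between 13, within slide 3, and 21.

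Of 13 other class B peptide receptors, the receptor class to which Calcr and Calcrl belong, 6 differences were positive and the median was -0.09. Glp2r, the receptor of glucagon-like peptide 2, had -3.68, -4.10, -3.71 and -3.27 in CKO 1 to 4, against -3.04, -3.48, -1.98 and -2.13 in WT 1 to 4. WT 2 lay among the CKO arrays and the other WT arrays above them, and the difference was -1.03 ± 0.36 (SE, limma unadjusted p = 0.0200). Gipr, the receptor of gastric inhibitory polypeptide, had -0.29 ± 0.15 (SE).

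**Figure D5:**
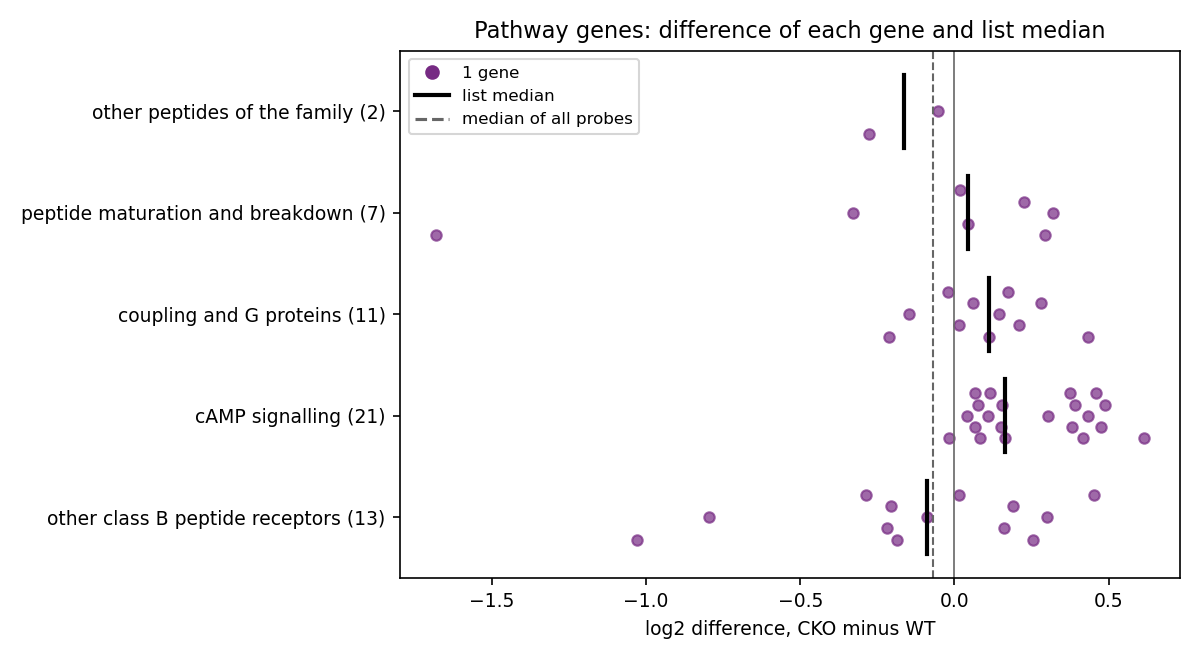
Log2 difference, CKO minus WT (horizontal axis), of each measured gene in 5 pathway lists (rows, with the number of genes), with the median of each list as a bar and the median of all probes as a dashed line. The cyclic AMP genes lie right of 0 except 1, and the class B receptors lie on both sides.

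Markers of cell types that the pull-down could hold were measured beside these values, since vessels carry Calcrl and Ramp2 in many tissues. Of 21 endothelial and pericyte markers 17 were well above background on all arrays and Pdgfrb on none. Their mean normalized signal was -2.78 to -1.96 in CKO and -2.42 to -2.08 in WT, and the ranges overlapped. Tagln of smooth muscle and Kdr of endothelium had differences of -0.17 ± 0.26 and -0.21 ± 0.30 (SE). Of the 21 differences 6 were positive and the median was -0.081. The mean over 12 choroid plexus and meningeal markers was -1.75 to -1.28 in CKO and -1.88 to -1.49 in WT, with Aqp1 well above background on no array. In that list Ttr of the choroid plexus had a difference of 1.15 ± 0.37 (SE, limma unadjusted p = 0.0136) and Dcn of the meninges 0.016 ± 0.15 (SE).

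The 10 excitatory neuron markers were all well above background on every array, with means of 2.16 to 2.46 in CKO and 1.95 to 2.34 in WT. Camk2a had a difference of 0.047 ± 0.19 and Slc17a7 of 0.23 ± 0.18 (SE). In each of the lists of interneurons, astrocytes, microglia and oligodendrocytes 9 of 10 markers were well above background on all arrays. The interneuron mean was 0.20 to 0.44 in CKO and -0.061 to 0.37 in WT, with differences of 0.11 for Lhx6 and 0.33 for Cck. The astrocyte mean was 0.0087 to 0.25 in CKO and -0.24 to 0.25 in WT, with 0.47 for Aldoc and 0.15 for Slc1a2.

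The microglial mean was -0.52 to -0.11 in CKO and -0.55 to -0.27 in WT, with differences of 0.24 for Itgam and 0.025 for Csf1r. The oligodendrocyte mean was 0.25 to 0.46 in CKO and -0.38 to 0.54 in WT, with a difference of 0.20 for Mbp. In 6 of the 7 marker lists, all but the vessels, most differences were positive, as in the cyclic AMP list. The positive counts were 9 of 10 for oligodendrocytes (median 0.19), 8 of 10 for microglia (0.17), 8 of 12 for choroid plexus and meninges (0.16), and 6 of 10 each for astrocytes (0.23), excitatory neurons (0.14) and interneurons (0.13). At an unadjusted limma p under 0.05 the genes higher in CKO were 3 of oligodendrocytes, 2 each of astrocytes and choroid plexus and meninges, and 1 each of microglia, interneurons and excitatory neurons. Those lower in CKO were 1 each of the vessels and the excitatory neurons. At the same unadjusted p, 1031 of all 55663 probes were higher in CKO and 1884 were lower. Among the 38780 probes well above background on all arrays, as most of these markers were, 931 were higher and 902 were lower. The ranges overlapped in all 7 lists, and 0 of their 83 genes passed a limma adjusted p of 0.05 over all probes. Across the 22 settings the vessel median lay between -0.20 and 0.10, and that of excitatory neurons between -0.053 and 0.29. The part of the marker genes in the Calcr difference and in the pathway lists was not tested.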

How the data were processed

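RNA from anti-HA pull-downs of 8 hippocampi, 1 array per mouse, was amplified, labelled with Cy5 and hybridised to Agilent mouse arrays, per the labels' protocols. The deposited scanner files hold red-channel intensity per spot from Agilent Feature Extraction, version 11.5 per the submitters' processing notes, and probe positions on mm9, per the file headers. The authors also deposited an intensity table per spot on a linear scale. It followed the ranks of the background-subtracted signal, its medians were 1507, 1362, 1987 and 1561 for CKO 1 to 4 and 1309, 1313, 1263 and 1645 for WT 1 to 4, and its centring and its scaling between arrays stay unknown here.

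Groups and replicate numbers came from the titles, and mice are labelled as biological replicates. Flagged spots were left out, spots of a probe were averaged, and log2 processed signal was scaled to each array's 75th percentile. All 55663 probes with an unflagged spot on every array, of 55681, were fitted with limma 3.58.1 in R 4.3.3 (lmFit, eBayes, two-sided), with Benjamini-Hochberg adjustment and a threshold of 0.05. The fit was tested on simulated data. The number of arrays limits the precision.

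Members, lists and named genes were chosen with earlier results of these data known. The text names all member probes, Ctcf, the 2 genes of smallest p in each pathway list, neighbours of Calcr well above background on at least 4 arrays, the 2 brightest genes of each marker list and the 5 genes most like Calcr. A gene that this rule takes is not reported here. Gnas and Crcp were added for their role, after their values were seen. A pathway gene is its probe of highest mean. Member names were the same by the file's name and by accession for all 12 probes. Start regions came from RefSeq on GRCm38.p6, where 6 of the 8 members had one. Alternatives were another scaling, background correction, source of values, dim-probe filter, slide, sex, prior variance, replicate block and leaving out each array. Input RNA was not analysed here.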

Additional observations from a re-analysis of the deposited data

Results flagged for a closer look

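The groups of 4 arrays were checked for a mouse that stood apart, by the gap of the highest or lowest value to its nearest neighbour over the whole range of the group. Of 26 groups checked 1 had such a mouse. Ramp2 had a normalized log2 signal of 2.08 in WT 4, far above the other 3 WT arrays. Chance alone gives such a gap in about 1 in 20 groups.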

How the results depend on the processing

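Calcr was lower in CKO in all 21 settings that measured it. Most of these settings reuse the values on which Calcr was chosen. Its groups do not overlap, so leaving out arrays or fitting within a slide could not change the sign. The sex term, replicate block, trended variance and dim-probe filter left the difference at -1.96. The count of settings is therefore a description and not independent support. The log2 difference was -1.31 after quantile normalization, -0.23 with normexp correction and quantile normalization, and -0.25 with an offset of 1 added after the data were seen. The cause of these changes was not tested. The difference was -2.58 within slide 2, -1.15 within slide 3, and -2.20 to -1.73 when each array was left out. The authors' values were blank for Calcr on 2 arrays and gave no difference.

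The number of probes past the threshold was 3, and was within 1.5 times of that in 4 of 22 settings. It was 5 with slide as a random block, 1 after quantile normalization and with the filter of 4 arrays and 1 probe per gene, and 0 with the authors' values, normexp with an offset of 1, slide as a fixed block, within slide 2, sex as a covariate, males only and a trended robust variance. Leaving out an array gave 0 to 12, with 12 without WT 4. No cause was tested for these counts.

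Among the other member probes Adm and Calca A_55_P2139942 kept their sign in every setting, Calca A_52_P154101 in 17 of 22, Calcb in 14 of 20 and Ramp1 A_52_P172014 in 12 of 21. Each of the rest changed it in 1 setting.

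Replicate numbers are shared by the groups, and the mice were not treated as pairs. Deviations of same-numbered arrays correlated at -0.34, 0.45, -0.42 and 0.13. The positive values belong to numbers 2 and 4, whose arrays share a slide. Pairing and slide can therefore not be told apart here. The fit with the replicate block called 0 probes and left Calcr at -1.96. Ctcf stayed negative in all 22 settings, from -1.0 to -0.58, with limma adjusted p of 0.263 to 0.999. No pathway gene and no neighbour of Calcr passed in any of the 22 settings. Those settings called 0 to 12 of all probes, so few passes could fall in any short list. Median scaling placed the median of all probes at 0.077 in place of -0.07, a shift in every difference. Signal over background limits Calcr, Calcrl, Calcb, Adm and Calca A_55_P2139942.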
